A study of Mus musculus with 48 samples.

Results

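Expression of 10 endothelial and blood-brain barrier genes was examined in the dentate gyrus of mice after intrahippocampal kainate. The genes were listed by name (Cldn5, Ocln, Tjp1, Mfsd2a, Slc2a1, Plvap, Vwf, Pecam1, Angpt2 and Vcam1) and were read as rows of the deposited gene count table. All 10 were among its 55357 genes and all 10 passed the filter for low counts, as did 21390 genes in all. RNA-seq was performed on 48 libraries from 24 C57BL/6J mice. Each mouse was injected in the hippocampus of 1 side with kainate, a glutamate receptor agonist that induces status epilepticus, or with saline. Each mouse gave 1 library from the dentate gyrus of the injected side, the epileptogenic zone (EZ), and 1 from the opposite side, the peri-ictal zone (PIZ). Per the study's methods only the dorsal part of each dentate gyrus was sequenced. Kainate and saline mice were taken at day 3, 7 or 14, which gave 12 groups of 4 libraries, and every library was from 1 mouse. Per the study's methods each group held 2 male and 2 female mice, and the sex of a single mouse is not given in the sources used here. The sample records give an age of 6 to 8 weeks, and no transgene or further agent separated the groups. A convulsive seizure soon after injection was required of kainate mice, and per the study's methods all of them had one.

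Brain endothelial cells are joined by tight junctions, carry few transport vesicles and use dedicated transporters, and together these form the blood-brain barrier. Wnt signaling from neural cells, and contact with pericytes and astrocytes, keep the barrier in place. Activated vessels display adhesion molecules that bind leukocytes and release factors stored in endothelial granules. The 10 genes fall into these roles. Cldn5, Ocln and Tjp1 encode tight junction proteins, and Mfsd2a and Slc2a1 encode transporters. Pecam1 encodes a junctional protein of all endothelium, Vwf encodes von Willebrand factor, and Plvap encodes the diaphragm protein of fenestrated vessels. Angpt2 encodes a ligand of the Tie2 receptor, and Vcam1 encodes an adhesion molecule for leukocytes.

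On GRCm39 the tight junction genes lie at chr16:18595597-18597012 (Cldn5, plus strand), chr13:100630334-100689535 (Ocln, minus strand) and chr7:64945898-65177529 (Tjp1, minus strand). The transporter genes lie at chr4:122840643-122855244 (Mfsd2a, minus strand) and chr4:118965908-118996365 (Slc2a1, plus strand). The remaining genes lie at chr8:71948674-71964506 (Plvap, minus strand), chr6:125523737-125663642 (Vwf, plus strand), chr11:106543689-106641454 (Pecam1, minus strand), chr8:18739202-18791603 (Angpt2, minus strand) and chr3:115903598-115923355 (Vcam1, minus strand). All 10 are annotated as protein-coding. No annotated gene shared exon bases with them on the same strand. Ocln, Mfsd2a, Slc2a1, Plvap, Angpt2 and Vcam1 shared exon bases with a gene on the opposite strand, up to 3387 bases between Angpt2 and Mcph1, and the authors counted reads by strand.

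Promoter windows were found for 5 of the 10 genes in the RefSeq table on GRCm38.p6 (Cldn5, Ocln, Tjp1, Mfsd2a and Slc2a1), and none was listed for Plvap, Vwf, Pecam1, Angpt2 or Vcam1. The 250 bases before the start site are shown for the 3 of these that were differentially expressed in the EZ, with the letters of the hypoxia response motif ACGTG in capitals. The windows are chr16:18776597-18776846 (Cldn5, plus strand), chr4:122961189-122961438 (Mfsd2a, minus strand) and chr4:119108495-119108744 (Slc2a1, plus strand), and each is written 5′ to 3′ in the direction of the gene.
Cldn5: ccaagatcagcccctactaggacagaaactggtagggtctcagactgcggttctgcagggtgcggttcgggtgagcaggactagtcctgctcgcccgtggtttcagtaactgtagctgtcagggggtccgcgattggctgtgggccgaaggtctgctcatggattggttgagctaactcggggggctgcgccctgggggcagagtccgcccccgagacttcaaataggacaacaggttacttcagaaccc
Mfsd2a: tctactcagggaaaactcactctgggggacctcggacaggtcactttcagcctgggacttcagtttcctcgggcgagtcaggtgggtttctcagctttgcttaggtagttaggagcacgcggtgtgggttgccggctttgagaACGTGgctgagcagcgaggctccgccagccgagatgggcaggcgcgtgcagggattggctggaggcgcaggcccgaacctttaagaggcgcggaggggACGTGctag
Slc2a1: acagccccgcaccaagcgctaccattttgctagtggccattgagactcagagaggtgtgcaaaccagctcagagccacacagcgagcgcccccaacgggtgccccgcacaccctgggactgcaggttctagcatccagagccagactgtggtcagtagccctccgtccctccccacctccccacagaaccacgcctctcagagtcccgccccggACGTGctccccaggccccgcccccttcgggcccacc
Both transporter promoters held ACGTG, which stood in Mfsd2a 107 and 9 bases before the start site and in Slc2a1 36 bases before it (first base of each). On either strand, 19.6% of all 32851 promoter windows of 300 bases held these letters. Tjp1 held it on the opposite strand, after the start site, and 1 of the 2 Ocln windows held CCGGAA. The Cldn5 window held none of the motifs searched, which were GGGNNTTCC and GGGTTTCCC (NF-kB-like, in 5.82% and 0.499% of windows), CTTTGAT (TCF/LEF, 3.73%), CCGGAA (ETS, 14.9%) and ACGTG. A match is a description of the letters and not of a bound site.

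Library totals lay between 17762656 and 25712975 counts. Levels are given as CPM, the count of a gene relative to the TMM-scaled size of its library. The ± of each log2 fold change is its standard error in 1 edgeR model of all 48 libraries, with n = 4 mice per group. Differentially expressed genes (DEG) had to pass both limits of the study, an adjusted p below 0.01 and a change of more than 1.5-fold. Granule cells, the main neurons of the dentate gyrus, were represented in every library, with a summed level of their marker list between 38.9 and 274 FPKM in the EZ of kainate mice and between 140 and 247 in the EZ of saline mice. Among the endothelial and barrier genes, 3 kainate libraries of the EZ were often the highest or lowest of their group. Mouse 27 at day 14 was the highest of its 4 mice in 8 of the 10 genes. Mouse 23 at day 7 and mouse 44 at day 3 were each the lowest of 4 in 7. By Dixon's test for an outlying value, mouse 27 lay apart in Vcam1, Mfsd2a and Cldn5 and mouse 44 in Mfsd2a. Mouse 23 lay apart in no gene of the EZ. Values without these 3 mice are given beside the results below that turn on them.

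**Figure D1:**
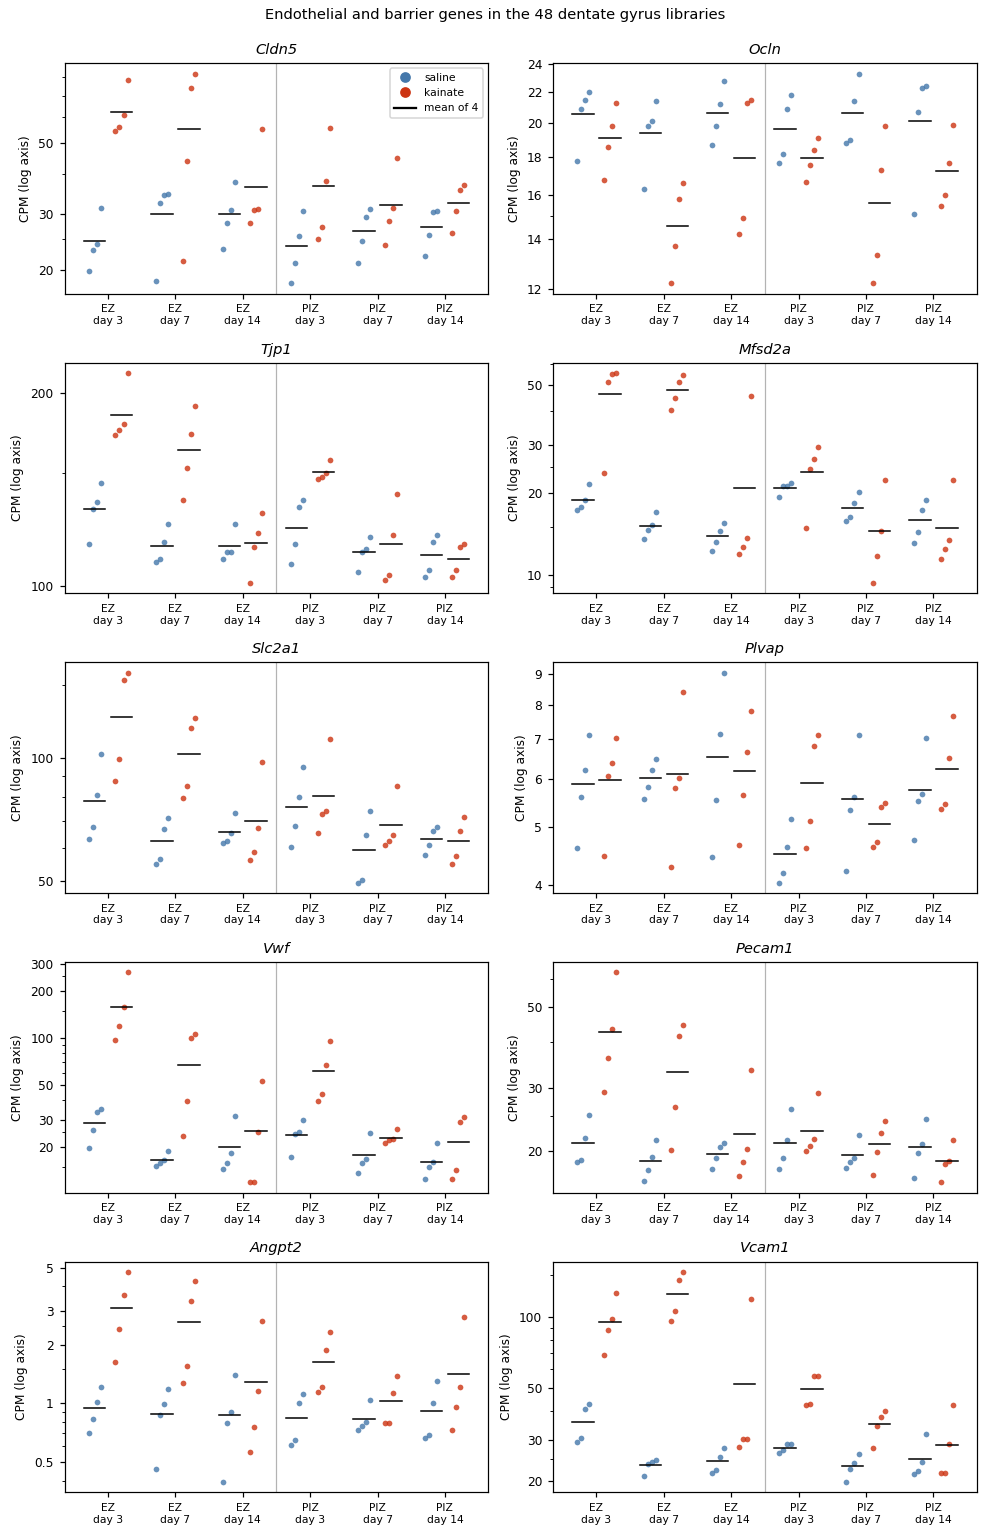
CPM of the 10 genes on log axes in every library, by side and day, with saline in blue, kainate in red and the mean of 4 libraries as a line. Kainate points stood above saline in the EZ at day 3 for 7 of the 10 genes, and Ocln and Plvap overlapped in all 6 comparisons.

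Levels between genes were compared per kilobase of exon (FPKM). The length is the union of all exons annotated for a gene in Gencode M39, such as 16729 bases for Vwf and 3842 for Plvap. The order of the genes depends on this choice. Over the 24 saline libraries Cldn5 had the highest mean, 19.1 ± 3.87 FPKM (SD, n = 24), followed by Tjp1 at 14.9 ± 1.41 and Slc2a1 at 14.4 ± 2.64. The ranges of these 3 genes overlapped. Mfsd2a followed at 6.38 ± 1.1 FPKM and did not overlap them, while it overlapped Vcam1, which was next at 2.95 ± 0.627. Ocln (2.15 ± 0.223 FPKM), Pecam1 (2.01 ± 0.252), Plvap (1.49 ± 0.311) and Vwf (1.23 ± 0.396) overlapped their neighbors in this order. Angpt2 was far below the others at 0.184 ± 0.0536 FPKM, with as few as 8 counts in a library, so that its values are the least precise.

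To examine vascular gene expression in the EZ during the first week, kainate was compared with saline at days 3 and 7. At day 3, 7 of the 10 genes rose and none fell, where 16.1% of all genes tested rose. Vwf rose 5.61-fold, Angpt2 3.29-fold, Vcam1 2.65-fold, Cldn5 2.54-fold, Mfsd2a 2.45-fold, Pecam1 2.03-fold and Slc2a1 1.6-fold. At day 7 the same 7 genes were called, all higher, where 20.6% of all genes rose. In that comparison Vcam1 was 5.35-fold and Vwf 4.07-fold higher. Among the 10 genes the median log2 fold change at day 3 was 1.16, and at day 7 it was 0.86, beside 0.03 and 0.01 over all genes tested. The 4 kainate libraries all lay above the 4 saline libraries in 7 of the 10 genes at day 3 and in 6 at day 7, and 23.9% and 23.7% of all genes did so. In bulk tissue, fewer cells of a type and less RNA per cell cannot be told apart, and neither can more cells and more RNA per cell. Levels are relative to the rest of the library, so less RNA from other cells cannot be told apart from these either. The granule neuron list in kainate mice summed to 71.9 to 182 FPKM at day 3 (saline 157 to 194) and 38.9 to 171 at day 7 (saline 140 to 223). Its part in the rises was not tested.

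**Figure D2:**
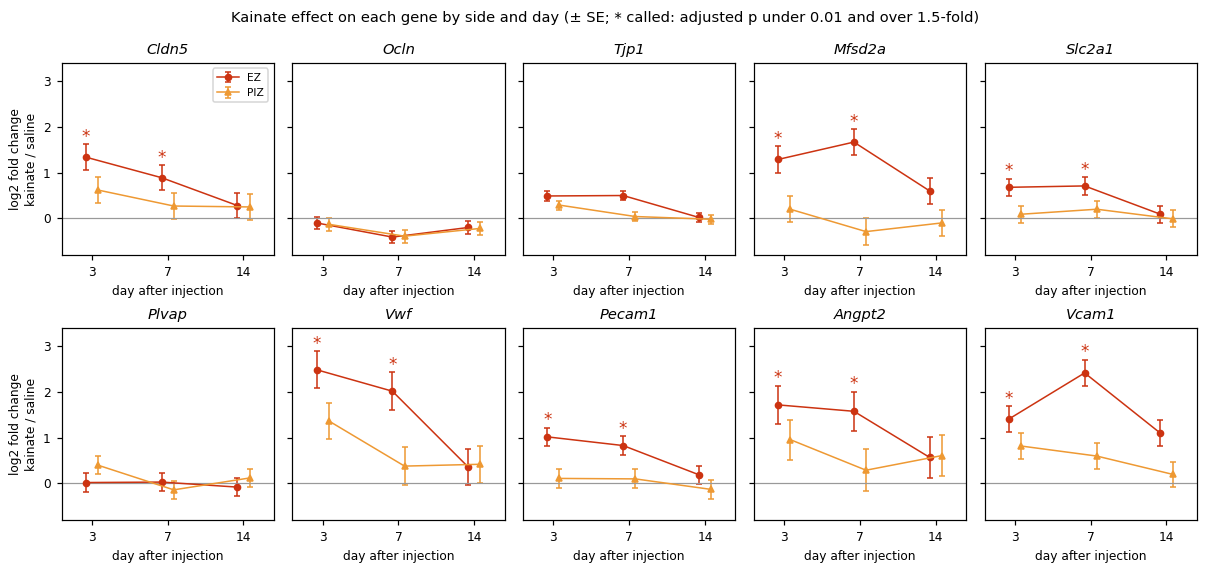
Log2 fold change of kainate against saline (± SE) for each gene at days 3, 7 and 14, with the EZ as red circles and the PIZ as orange triangles. Asterisks mark DEG, which were all in the EZ at days 3 and 7, and Vwf at day 3 (2.49) and Vcam1 at day 7 (2.42) had the largest values.

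Among the tight junction genes, Cldn5, the main claudin of brain endothelium, rose in the EZ. At day 3 its level was 54.5, 55.8, 61 and 78.3 CPM in kainate mice and 19.9, 23.1, 24.2 and 31.2 CPM in saline mice. The groups did not overlap, and the log2 fold change was 1.34 ± 0.28 (adjusted p = 0.000171). At day 7 the kainate values were 21.4 (mouse 23), 43.7, 74.2 and 82.2 CPM beside 18.5 (mouse 89), 32.3, 34.3 and 34.7 CPM in saline mice. Mouse 23 lay within the saline range, and the other 3 kainate mice lay above it. The log2 fold change was then 0.89 ± 0.28 (adjusted p = 0.00645), and it was 1.16 (adjusted p = 0.000179) without mouse 23. With mouse as a random block the call at day 7 was lost (log2 fold change 0.76, adjusted p = 0.0197 by limma-voom), as it was without kainate mouse 21 or 35 or saline mouse 33 or 89. In edgeR it was also lost without the count filter (adjusted p = 0.0111), with the EZ libraries alone (0.0253) and with the compared groups alone (0.0945). Scaling to endothelial genes (0.411) and a test against 1.5-fold (0.165) lost it as well, and 10 of 20 alternatives kept it.

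Tjp1, which encodes the scaffold protein ZO-1, stayed under the fold threshold while all 4 kainate libraries lay above saline at both days. At day 3 its level was 172, 175, 179 and 215 CPM in kainate mice and 116, 132, 135 and 145 CPM in saline mice. The log2 fold change was 0.49 ± 0.10 (adjusted p = 9.39e-05), a fold change of 1.4. At day 7 it was 0.50 ± 0.10 (adjusted p = 3.8e-05), with kainate mice between 136 and 191 CPM and saline mice between 109 and 125 CPM. The standard error of Tjp1 was the smallest of the 10 genes.

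Ocln encodes occludin, a transmembrane protein of the same junctions, and was no DEG at any time with TMM scaling. Its log2 fold change in the EZ was -0.10 ± 0.14 at day 3 (adjusted p = 0.567). At day 7 it was -0.41 ± 0.14 (adjusted p = 0.0115), with 12.2, 13.7, 15.8 and 16.6 CPM in kainate mice and 16.3, 19.8, 20.1 and 21.4 CPM in saline mice. Only kainate mouse 26, at 16.6 CPM, reached the lowest saline value at that day. Scaling the libraries to the summed counts of an endothelial identity list moved all genes alike, and the median gene then stood at -0.57 (day 3) and -0.56 (day 7). On that scale Ocln passed both limits at -0.69 and -0.95, as did 9515 and 10472 of all genes, and Tjp1 was at -0.13 and -0.10.

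The transporter genes rose as well. Mfsd2a encodes a lipid transporter that restrains vesicle traffic across brain endothelium. At day 3 its level was 23.6 (mouse 44), 51.2, 54.8 and 55.3 CPM in kainate mice and 17.3, 17.8, 18.9 and 21.6 CPM in saline mice. Mouse 44 lay just above saline and far below the other 3 mice, and the log2 fold change was 1.29 ± 0.29 (adjusted p = 0.000391), or 1.51 without mouse 44. At day 7 the kainate values were 40.6, 44.9, 51.3 and 54.5 CPM and the saline values 13.5, 14.6, 15.2 and 17 CPM. The lowest kainate value was far above the highest saline value, and the log2 fold change was 1.67 ± 0.29 (adjusted p = 1.1e-05). Mouse 23, which was low for other vascular genes, had the highest Mfsd2a level of that group.

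Slc2a1 encodes the glucose transporter GLUT1 of brain endothelium and astrocytes. At day 3 its level was 87.8, 99.2, 155 and 161 CPM in kainate mice and 63.3, 67.5, 80.8 and 102 CPM in saline mice. The groups overlapped, and the log2 fold change of 0.68 ± 0.19 (adjusted p = 0.00382) was no longer called without kainate mouse 38 or 42 or saline mouse 29 or 37. At day 7 the groups separated, with 79.7, 85.1, 118 and 125 CPM in kainate mice and 55.1, 56.6, 66.9 and 71 CPM in saline mice. The log2 fold change was 0.71 ± 0.19 (adjusted p = 0.002), and this call was lost without kainate mouse 21 or 35.

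Among the genes of vessel identity and hemostasis, Vwf showed the largest change of the 10 genes at day 3. Its level was 96.7, 120, 158 and 264 CPM in kainate mice and 19.8, 25.7, 33.6 and 34.9 CPM in saline mice. The lowest kainate mouse was far above the highest saline mouse, and the log2 fold change was 2.49 ± 0.41 (adjusted p = 8.68e-06). At day 7 the kainate mice spread widely, at 23.6 (mouse 23), 39.8, 100 and 107 CPM, beside 15.1, 15.9, 16.6 and 18.9 CPM in saline mice. The log2 fold change was 2.02 ± 0.41 (adjusted p = 7.81e-05). Von Willebrand factor is also made by megakaryocytes and carried by platelets. Of 7 tested genes of a blood cell and platelet list, 2 rose in the EZ at day 3. Both were listed as platelet genes, Itga2b (log2 fold change 2.91 ± 0.38, adjusted p = 3.02e-07), which encodes an integrin subunit, and Pf4 (2.01 ± 0.45, adjusted p = 0.000393). Which cells their RNA came from was not tested, and the median log2 fold change of the 7 genes was 0. Pf4 reached between 0.727 and 3.02 CPM in those kainate libraries, while the hemoglobin genes Hba-a1 and Hba-a2, near-identical copies whose reads cannot be divided with certainty, differed by 0.07 and 0.00. The part of platelet RNA in the Vwf values was not tested.

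Pecam1 rose at both days in the EZ. At day 3 its level was 29.1, 36.2, 43.5 and 62.5 CPM in kainate mice and 18.7, 18.9, 21.7 and 25.1 CPM in saline mice, with no overlap and a log2 fold change of 1.02 ± 0.20 (adjusted p = 9.95e-05). At day 7 mouse 23, at 20.1 CPM, lay within the saline range of 16.5 to 21.4 CPM, and the other 3 kainate mice had 26.5, 41.7 and 44.6 CPM. The log2 fold change was 0.83 ± 0.20 (adjusted p = 0.000763), and 1 without mouse 23. This call was lost without kainate mouse 35 (0.66, adjusted p = 0.0103).

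Plvap, by contrast, was low in kainate and saline mice alike, and no difference between them was detected. In the EZ at day 3 it was 4.46, 6.08, 6.4 and 7.04 CPM in kainate mice and 4.61, 5.6, 6.22 and 7.11 CPM in saline mice. The groups overlapped almost entirely, and the log2 fold change was 0.02 ± 0.20 at day 3 (adjusted p = 0.928) and 0.03 ± 0.20 at day 7 (adjusted p = 0.911). A p of this size does not show that the gene was unchanged, and the standard error gives the precision of the estimate.

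Angpt2, which is released by activated endothelium and opposes the stabilizing ligand Angpt1 at the Tie2 receptor, rose from a low level. At day 3 it was 1.64, 2.41, 3.63 and 4.74 CPM in kainate mice and 0.706, 0.83, 1.02 and 1.22 CPM in saline mice. All kainate values were above all saline values, and the log2 fold change was 1.72 ± 0.42 (adjusted p = 0.00101). At day 7 kainate mice had 1.27 (mouse 23), 1.56, 3.36 and 4.27 CPM and saline mice 0.459, 0.868, 0.989 and 1.19 CPM (log2 fold change 1.58 ± 0.43, adjusted p = 0.00194). That call was lost without kainate mouse 21 or saline mouse 20. Angpt1 itself differed by 0.29 ± 0.20 at day 3 (adjusted p = 0.24) and rose at day 7 (1.20 ± 0.20, adjusted p = 5.83e-06) and in the PIZ at day 3 (0.89 ± 0.20, adjusted p = 0.00134).

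Vcam1 had the largest fold change of the 10 genes at day 7. At day 3 its level was 68.7, 88, 97.6 and 126 CPM in kainate mice and 29.3, 30.7, 40.5 and 42.8 CPM in saline mice (log2 fold change 1.41 ± 0.28, adjusted p = 9.01e-05). At day 7 it was 96.4, 106, 143 and 155 CPM beside 21, 23.7, 24.2 and 24.7 CPM. The groups were far apart at day 7, mouse 23 included, and the log2 fold change was 2.42 ± 0.29 (adjusted p = 3.56e-08). The difference between the effects of the 2 days, 1.01 ± 0.39, did not pass the test (adjusted p = 0.257). At day 7 all 8 tested microglia genes rose and their summed level was 479 to 1890 FPKM in kainate mice against 108 to 119 in saline mice. Their part in the Vcam1 values was not tested.

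To examine whether the vascular changes lasted, the same comparison was made at day 14. By edgeR none of the 10 genes was a DEG in the EZ, where 2.36% of all genes were called. Unadjusted p was under 0.05 for Mfsd2a and Vcam1 and for 3848 of the 21390 genes, and DESeq2 called Vcam1. Vcam1 was 27.9, 30.2, 30.4 and 119 CPM in kainate mice and 21.7, 22.3, 25.5 and 27.7 CPM in saline mice, and the log2 fold change was 1.10 ± 0.28 (adjusted p = 0.013). The value of 119 CPM was that of mouse 27, and the other 3 kainate mice lay close to saline. Without mouse 27 the log2 fold change of Vcam1 was 0.28 (adjusted p = 1), and without any 1 of mice 14, 36 and 40 it was called (1.28 to 1.30).

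In mouse 27 the EZ levels of Mfsd2a, Cldn5, Vwf, Pecam1 and Vcam1 lay within the range of the kainate mice at day 7. Its EZ library had 45.5 CPM of Mfsd2a, where the other 3 kainate mice had 11.9, 12.6 and 13.6 CPM. It had 55.2 CPM of Cldn5 (others 28, 30.9 and 31), 53.2 CPM of Vwf (others 11.9, 11.9 and 24.9) and 33.5 CPM of Pecam1 (others 17.1, 18.6 and 20.3). Plvap was 6.66 CPM in this mouse, inside the range of the others, and Ocln was the lowest of the 4 at 14.2 CPM. The summed microglia level was 905 FPKM in this library and 122, 147 and 195 in the other 3, and the granule neuron level was 74.8 FPKM against 162, 187 and 274. Without mouse 27 the fold changes of the 10 genes at day 14 lay between -0.29 and 0.28 on the log2 scale, and the number of all genes called fell from 504 to 7.

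The time course within the EZ was tested as the difference of the kainate effects. From day 3 to day 7 none of the 10 genes differed by edgeR (0.145% of all genes did), with an unadjusted p under 0.05 for Vcam1 and for 2565 of all genes and 0 calls by DESeq2 among the 10. Without mouse 23 none of the 10 was called either, with 83 of all genes against 31. From day 7 to day 14 none was called either (0.271% of all genes), although 9 of 10 estimates were negative, with an unadjusted p under 0.05 in 6 of the 10 and in 7081 of all genes and 0 calls by DESeq2 among the 10. The estimates were -1.67 ± 0.57 for Vwf (adjusted p = 0.0435), -1.32 ± 0.39 for Vcam1 (adjusted p = 0.0259) and -0.49 ± 0.14 for Tjp1 (adjusted p = 0.0216). Without mouse 27, 3 genes were called lower at day 14 than at day 7, Vwf (-2.31, adjusted p = 0.00121), Vcam1 (-2.14, adjusted p = 7.38e-08) and Mfsd2a (-1.79, adjusted p = 2.38e-05). Of all genes, 4087 were then called, beside 58 with all mice. Without mouse 23, Vwf and Vcam1 were called, and 2333 of all genes. Limma-voom with quality weights called 6 of the 10 lower from day 7 to day 14, with 6301 of all genes called. From day 3 to day 7 it called Vcam1 (1.1, adjusted p = 0.00307), with 1225 of all genes called.

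In the PIZ, the question was whether the vessels of the opposite dentate gyrus changed as well. At day 3 none of the 10 genes was a DEG by edgeR, where 8.69% of all genes were called. Unadjusted p was under 0.05 for Cldn5, Tjp1, Vwf, Angpt2 and Vcam1 and for 7641 of all genes, and DESeq2 called Vwf. The 4 kainate libraries nevertheless all lay above saline in 4 of the 10 genes, as in 17.1% of all genes. These were Vwf, Vcam1, Tjp1 and Angpt2, and each is given below.

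Vwf in the PIZ at day 3 was 39.7, 43.7, 67.4 and 96.5 CPM in kainate mice and 17.2, 24.2, 24.9 and 29.7 CPM in saline mice. The log2 fold change was 1.37 ± 0.40 (adjusted p = 0.0119), and Vwf was called without mouse 38 (1.53, adjusted p = 0.00662) and in 7 of the 12 other alternatives without a mouse left out. Without mouse 44, the highest of the 4, it was 1.07 (adjusted p = 0.0679). In mouse 44 the level of 96.5 CPM was as high as in its own EZ library, at 96.7 CPM, and Pecam1 was 28.9 and 29.1 CPM in the 2 libraries. Itga2b, listed as a platelet gene, rose in this comparison too (2.68 ± 0.39, adjusted p = 6.52e-06), while Pf4 did not pass (0.32 ± 0.54, adjusted p = 0.712).

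Vcam1 in the PIZ at day 3 was 42.1, 42.5, 56.1 and 56.2 CPM in kainate mice and 26.4, 27.1, 28.8 and 28.9 CPM in saline mice (log2 fold change 0.82 ± 0.28, adjusted p = 0.0281). The spread within each group was small, and the model of the PIZ libraries alone called it (0.84, adjusted p = 0.000645). Tjp1 was 147, 148, 150 and 157 CPM against 108, 116, 133 and 136 CPM (0.29 ± 0.10, adjusted p = 0.0257). Angpt2 was 1.14, 1.21, 1.88 and 2.32 CPM against 0.607, 0.65, 1 and 1.12 CPM (0.96 ± 0.44, adjusted p = 0.105). Cldn5 in the PIZ at day 3 ranged from 25.1 to 55.6 CPM in kainate mice and from 18.2 to 30.5 CPM in saline mice (0.62 ± 0.28, adjusted p = 0.103), with mouse 44 the highest, and the log2 fold change was 0.34 without mouse 44 (adjusted p = 0.446). Mfsd2a, Slc2a1 and Pecam1, which rose in the EZ, differed by only 0.20, 0.09 and 0.11 in the PIZ, with standard errors of 0.29, 0.19 and 0.20.

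At days 7 and 14 no gene of the 10 was called in the PIZ by edgeR, where 0.201% and 0.014% of all genes were. Unadjusted p was under 0.05 for Ocln and Vcam1 at day 7 and for 0 of the 10 at day 14, beside 3104 and 1277 of all genes, and DESeq2 called 0 at both days. Vcam1 at day 7 was 27.7, 34.5, 37.7 and 39.9 CPM in kainate mice, still above all 4 saline mice at 19.9, 22.6, 24 and 26.1 CPM (0.60 ± 0.28, adjusted p = 0.315). Ocln at day 7 was 12.2, 13.3, 17.3 and 19.8 CPM in kainate mice and 18.8, 19, 21.4 and 23.3 CPM in saline mice (-0.39 ± 0.14, adjusted p = 0.157), so that 3 of the 4 kainate mice lay under all saline mice, much as on the injected side. At day 14 the estimates of the 10 genes in the PIZ lay between -0.22 (Ocln) and 0.61 (Angpt2). The PIZ library of mouse 27 at day 14 was the highest kainate library for Vcam1 (42.3 CPM), Mfsd2a (22.4 CPM) and Angpt2 (2.77 CPM), where the other 3 had at most 28.9, 13.4 and 1.21 CPM. Without mouse 27 the estimate for Angpt2 there was 0.05 (adjusted p = 1), that for Vcam1 -0.05 and that for Mfsd2a -0.36.

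Whether kainate acted differently on the 2 sides was tested as the EZ effect minus the PIZ effect. At day 3 none of the 10 genes passed by edgeR, and 0.0655% of all genes did, so that the sides were not shown to differ at that day. Unadjusted p was under 0.05 for Mfsd2a, Slc2a1 and Pecam1 and for 3828 of all genes, and DESeq2 called 0 of the 10. Without mouse 44 still none of the 10 passed, while 208 of all genes did against 14, and the estimates moved from 0.91 to 1.19 for Pecam1 (adjusted p = 0.0136), from 1.12 to 1.6 for Vwf (adjusted p = 0.0892) and from 0.75 to 1.18 for Angpt2 (adjusted p = 0.249). At day 7 the effect was larger in the EZ for Mfsd2a and Vcam1, and 7% of all genes had a larger effect there. The count over all genes, 2115 in either direction, depended on single mice. It fell to 1 when kainate mouse 21 was left out, to 188 when mouse 35 was, and to 149 and 221 when saline mice 20 and 89 were left out in turn, and it was 3752 when mouse 23 was.

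The difference for Mfsd2a was 1.95 ± 0.41 (adjusted p = 0.00221). In the EZ its kainate effect at day 7 was 1.67, and in the PIZ, where kainate mice had 9.31, 11.7, 14.5 and 22.4 CPM and saline mice 15.8, 16.3, 18.4 and 20.1 CPM, it was -0.29 ± 0.29. In each of the 4 kainate mice the EZ library was higher than the PIZ library of the same mouse. The difference for Vcam1 was 1.82 ± 0.40 (adjusted p = 0.00239), from an effect of 2.42 in the EZ and 0.60 in the PIZ. Both were called with mouse as a fixed block, and both were lost without kainate mouse 21 or 35 or saline mouse 20 or 89 (adjusted p of 0.0106 to 0.0272), while the differences stayed at 1.77 to 1.99 for Mfsd2a and 1.61 to 1.79 for Vcam1. Vwf (1.65 ± 0.57, adjusted p = 0.03) and Tjp1 (0.46 ± 0.14, adjusted p = 0.0132) did not pass.

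At day 14 the difference between sides was called for none of the 10 genes by edgeR or DESeq2, and for 0% of all genes, with an unadjusted p under 0.05 for Vcam1 and for 1562 of all genes. From day 3 to day 7 the PIZ effect changed for none of them either, with 0.0234% of all genes called, 0 of the 10 (2270 of all genes) at an unadjusted p under 0.05 and 0 by DESeq2. Between saline EZ and saline PIZ libraries no difference was called in any of the 10 genes at day 3, 7 or 14 by edgeR or DESeq2, with 0.0281%, 0% and 0% of all genes called. Unadjusted p was under 0.05 for 0 of the 10 at each day, and for 1319, 325 and 517 of all genes. Across the 3 days the largest of these estimates was 0.39 ± 0.20, for Plvap at day 3. Vcam1 at day 3 was the gene whose sides did not overlap, at 29.3 to 42.8 CPM in the EZ and 26.4 to 28.9 CPM in the PIZ (0.37 ± 0.28, adjusted p = 0.909).

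Other vascular genes were followed in lists that leave out the 10. Over all genes tested, 16.1% rose and 8.61% fell in the EZ at day 3, 20.6% rose and 11.9% fell at day 7, and 7.12% rose and 1.57% fell in the PIZ at day 3, and the list counts are to be read beside these shares. Of 24 endothelial identity genes, 15 rose and none fell at day 3 and 14 rose and none fell at day 7, with median log2 fold changes of 0.76 and 0.70. The largest rises were Clec14a, an endothelial C-type lectin, at day 3 (1.65 ± 0.28, adjusted p = 1.25e-05) and Ly6a at day 7 (1.15 ± 0.26, adjusted p = 0.000268). Of the most abundant genes, Podxl, which encodes a sialomucin of the luminal surface, rose at day 3 (0.86 ± 0.20, adjusted p = 0.00045). Ly6c1 had 0.31 ± 0.21 (adjusted p = 0.231). Without mouse 23 the count at day 7 was 19. The summed level of this list at day 3 was 106 to 185 FPKM in kainate mice and 78.8 to 88 in saline mice, and at day 7 it was 85.6 to 150 against 69.8 to 81.5. Scaled to the summed counts of this list, 4 of the 10 genes were higher and 1 lower at day 3 and 3 were higher and 1 lower at day 7. Vwf, Vcam1, Cldn5 and Angpt2 were the 4 at day 3 and Vwf, Vcam1 and Mfsd2a the 3 at day 7, with Ocln lower at both. On this scale 9515 of all genes were called at day 3 and 10472 at day 7, beside 5280 and 6960 with TMM.

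**Figure D3:**
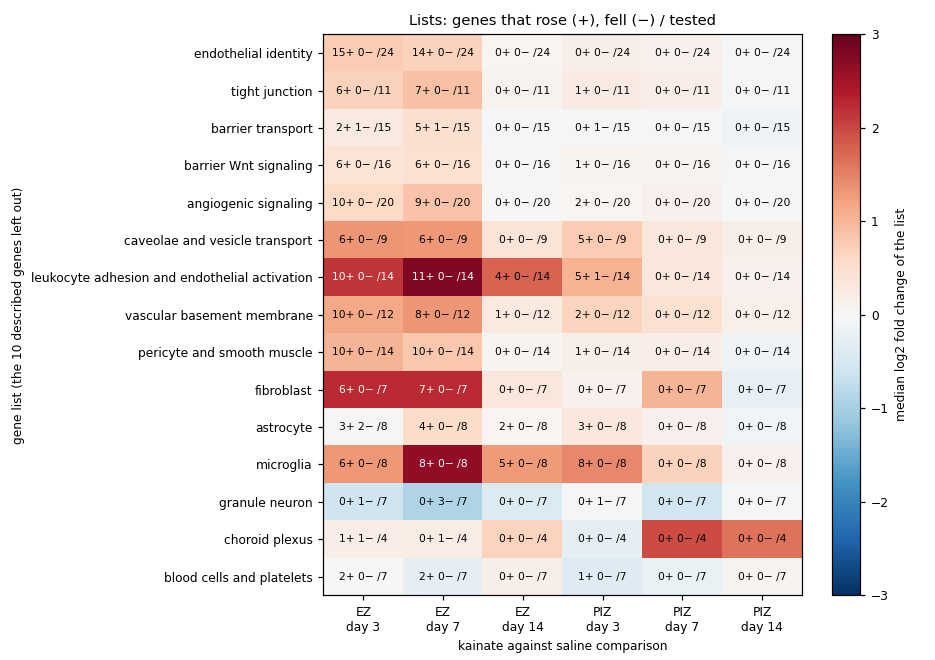
Median log2 fold change of 15 gene lists in the 6 comparisons of kainate with saline, as color, with the number of genes that rose, fell and were tested in each cell. The vascular lists are red in the EZ at days 3 and 7, and endothelial identity had 0 calls among 24 genes in the other 4 columns.

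Junction and barrier transport genes had lists of their own. Of 11 tested tight junction genes, 6 rose at day 3 and 7 at day 7, with none lower and medians of 0.68 and 0.88. Jam2, a junctional adhesion molecule, rose by 0.95 ± 0.17 (adjusted p = 2.6e-05) and F11r, which encodes another that platelets and leukocytes also carry, by 1.04 ± 0.30 (adjusted p = 0.00465) at day 3. F11r also rose in the PIZ at day 3 (1.6 ± 0.31, adjusted p = 0.000258). Of 15 barrier transport genes 2 rose and 1 fell at day 3, and 5 rose and 1 fell at day 7, at day 3 a share near that of all genes. Slc16a1, a monocarboxylate transporter, rose by 1.07 ± 0.24 at day 3 (adjusted p = 0.000412), and Slc3a2, the heavy chain of amino acid transporters, by 0.60 ± 0.13 (adjusted p = 0.000285). Slc38a5, a glutamine transporter, rose at day 7 (1.57 ± 0.37, adjusted p = 0.0004). The transferrin receptor gene Tfrc was lower in the EZ at day 3 (-0.71 ± 0.14, adjusted p = 5.09e-05), in the EZ at day 7 (-0.73 ± 0.14, adjusted p = 1.97e-05) and in the PIZ at day 3 (-0.59 ± 0.13, adjusted p = 0.00143).

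Of 16 genes of Wnt signaling to the barrier, 6 rose at day 3 and 6 at day 7, with none lower and medians of 0.41 and 0.45. The ligand gene Wnt7b rose at day 3 in the EZ (1.39 ± 0.17, adjusted p = 1.08e-07) and in the PIZ (1.07 ± 0.17, adjusted p = 1.93e-05), and the co-receptor gene Lrp5 rose at day 7 in the EZ (2.12 ± 0.26, adjusted p = 3.68e-08). Ctnnb1, which encodes beta-catenin, had 0.32 ± 0.10 at day 3 and stayed under the fold threshold. Of 20 angiogenic signaling genes, 10 rose in the EZ at day 3 and 9 at day 7, and 2 rose in the PIZ at day 3. Hif1a, the hypoxia-inducible factor, rose by 0.68 ± 0.17 (adjusted p = 0.000937) at day 3 and by 0.98 ± 0.17 (adjusted p = 6.86e-06) at day 7, and Igfbp3 by 2.42 ± 0.52 (adjusted p = 0.000167) at day 7. Vegfb had -0.19 ± 0.12 (adjusted p = 0.214). Esm1, a gene of endothelial tip cells, had 12 to 83 counts in kainate libraries of the EZ at day 3 and 0 or 1 in saline libraries (adjusted p = 0.000109), so that its fold change depends on the prior count.

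Of 9 tested genes of caveolae, the membrane pits of vesicle transport, 6 rose in the EZ at day 3, 6 at day 7 and 5 in the PIZ at day 3. The coat gene Cav1 rose by 2.24 ± 0.36 (adjusted p = 4.83e-06), 2.45 ± 0.36 (adjusted p = 6.37e-07) and 1.53 ± 0.35 (adjusted p = 0.00163) in these comparisons, and Cav2 by 1.11 ± 0.22, 1.29 ± 0.22 and 1.12 ± 0.22. Pacsin2 was not called in any of them. Of 14 tested genes of leukocyte adhesion, 10 rose in the EZ at day 3 and 11 at day 7, and 5 rose and 1 fell in the PIZ at day 3. Cd44, a hyaluronan receptor that astrocytes and leukocytes also carry, rose most, by 3.83 ± 0.64 (adjusted p = 8.77e-06) in the EZ at day 3 and by 4.63 ± 0.70 (adjusted p = 1.13e-05) in the PIZ at day 3. Itgb1, an integrin subunit, rose by 1.5 ± 0.24 (adjusted p = 6.94e-06) in the EZ at day 3. Itga4, which encodes a subunit of the receptor for Vcam1, fell in the PIZ at day 3 (-1.24 ± 0.34, adjusted p = 0.00638) and had 0.17 ± 0.33 in the EZ (adjusted p = 0.707). Ackr1 was the most abundant gene of this list, shared 361 exon bases with Cadm3 on the same strand, and is uncertain.

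Cells around the vessels were followed by their own lists. Of 14 pericyte and smooth muscle genes, 10 rose in the EZ at day 3 and 10 at day 7, with summed levels of 71.1 to 193 FPKM against 50.4 to 59.3 in saline mice at day 3. Tagln, a contractile protein gene, rose by 3.08 ± 0.48 (adjusted p = 3.9e-06) at day 3, Anpep by 2.5 ± 0.48 (adjusted p = 3.17e-05) at day 7 and Rgs5 by 0.80 ± 0.15 (adjusted p = 6.18e-05) at day 3. Notch3 was the 1 gene of the list called in the PIZ at day 3 (0.76 ± 0.17, adjusted p = 0.00113). Vtn, which pericytes express, had 0.40 ± 0.16 at day 3 (adjusted p = 0.0358). Of 12 basement membrane genes, 10 rose at day 3 and 8 at day 7. The laminin gene Lama4 rose by 1.78 ± 0.28 (adjusted p = 3.24e-06) at day 3, Sparc by 2.65 ± 0.37 (adjusted p = 2.55e-07) at day 7, and Lama5 by 1.01 ± 0.22 (adjusted p = 0.00102) in the PIZ at day 3. Agrn, which encodes agrin, stayed under the fold threshold in the PIZ at day 3 (0.53 ± 0.11, adjusted p = 0.000309).

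Of 7 tested fibroblast genes, 6 rose in the EZ at day 3 and 7 at day 7. All 8 listed genes summed to 15.5 to 54 FPKM against 10.8 to 15.7 at day 3 and 11.4 to 71.5 against 9.82 to 11.5 at day 7. The collagen gene Col3a1, which shared 141 exon bases with Gm54819 on the same strand, rose by 3.15 ± 0.79 at day 3 (adjusted p = 0.00127) and by 4.82 ± 0.87 at day 7 (adjusted p = 1.5e-05), and Pdgfra, which oligodendrocyte precursors also express, rose by 0.99 ± 0.21 at day 3 (adjusted p = 0.000193). Igf2, which shared 3599 exon bases with Gm49394 on the same strand and is uncertain, had -0.20 ± 0.35 at day 3 (adjusted p = 0.67). The part of fibroblast RNA in the 10 genes was not tested.

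**Figure D4:**
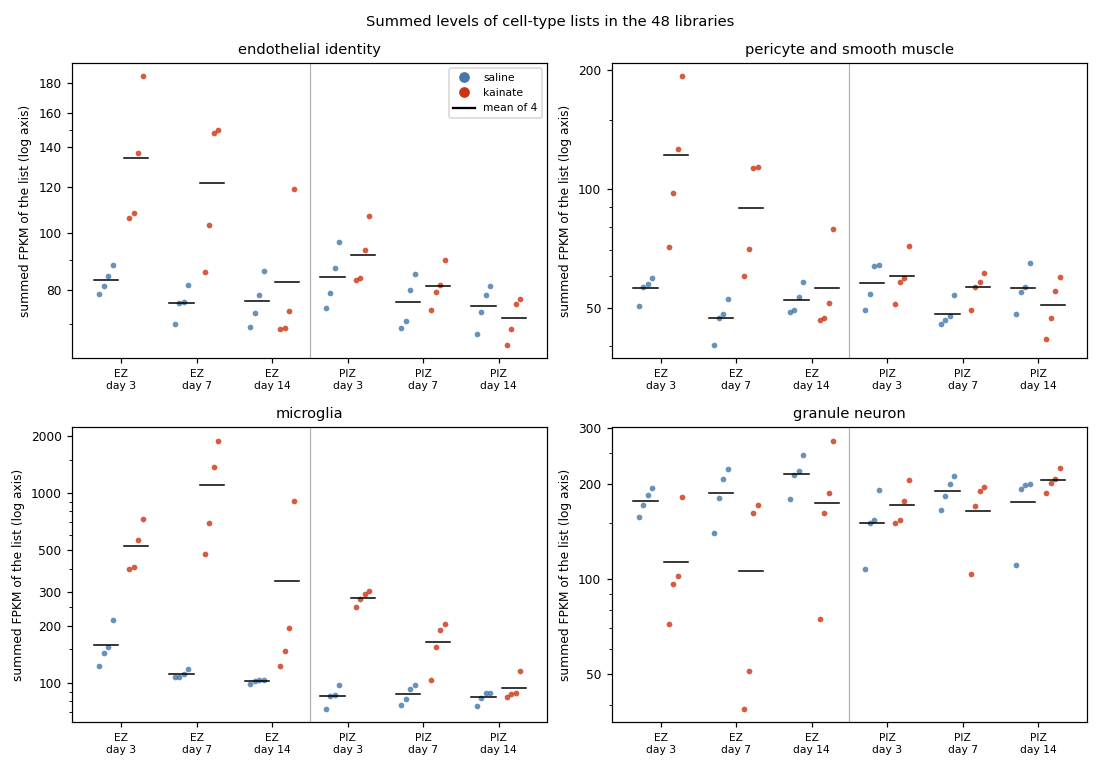
Summed FPKM of 4 cell type lists on log axes in every library, with saline in blue, kainate in red and the mean of 4 as a line. Kainate libraries of the EZ at day 3 stood above saline for endothelial identity (106 to 185 against 78.8 to 88 FPKM), and 1 kainate library at day 14, that of mouse 27, stood apart for microglia at 905 FPKM.

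The remaining cell type lists describe what else moved in these libraries. Of 8 microglia genes, 6 rose in the EZ at day 3 and 8 in the PIZ at day 3, with summed levels of 397 to 734 FPKM against 122 to 215, and 251 to 304 against 72.9 to 97.6. C1qa rose by 2.57 ± 0.47 (adjusted p = 3.13e-05) in the EZ at day 3 and by 4.21 ± 0.50 (adjusted p = 3.56e-08) at day 7. Of 8 astrocyte genes, 3 rose and 2 fell in the EZ at day 3 (2 rose and 3 fell without mouse 44), 4 rose at day 7, and 3 rose in the PIZ at day 3. Their summed level was 1510 to 1780 FPKM against 543 to 623 in the EZ at day 7 and 1230 to 1340 against 490 to 626 in the PIZ at day 3. In the EZ at day 3 Gfap was at 1.28 ± 0.40 (adjusted p = 0.0079) and the glutamate transporter gene Slc1a2 at -0.95 ± 0.14 (adjusted p = 2.1e-06). Of 7 granule neuron genes, 1 fell at day 3, a share near that of all genes, and 3 fell at day 7, with Calb1 at -1.20 ± 0.34 (adjusted p = 0.00378) at day 3 and Stxbp6 at -1.29 ± 0.34 (adjusted p = 0.0015) at day 7. C1ql2, a marker of granule cells, had -0.91 ± 0.59 at day 3 (adjusted p = 0.201). Of 4 tested choroid plexus genes, 1 rose and 1 fell at day 3 and 1 fell at day 7. All 7 listed genes of this tissue summed to 0.676 to 5.91 FPKM over all libraries. Choroid plexus vessels are fenestrated, and Ttr, the transthyretin gene that defines this tissue, had 2 to 53 counts in the EZ libraries of day 3. Kl, which neurons also express, fell at day 3 (-1.5 ± 0.38, adjusted p = 0.00147), and Prlr, which shared 203 exon bases with Gm21973 on the same strand and is uncertain, rose (2.17 ± 0.57, adjusted p = 0.00199). The part of these cells in the levels of the 10 genes was not tested. At day 14 in the EZ, where 2.36% of all genes were called, 5 of 8 microglia and 2 of 8 astrocyte genes rose, and of the vascular lists leukocyte adhesion had 4 of 14 called and basement membrane 1 of 12, with none in the others. Without mouse 27 every list had 0.

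Over the 12 group means of log2 CPM, 8 of the 10 genes followed each other and Ocln and Plvap did not. Pearson's r among Cldn5, Tjp1, Mfsd2a, Slc2a1, Vwf, Pecam1, Angpt2 and Vcam1 lay between 0.77 (Cldn5 and Mfsd2a) and 0.97 (Tjp1 and Vwf). Ocln had r between -0.59 and 0 with the others, and Plvap between 0 and 0.39. Outside the 10, the protein-coding genes most like each DEG in the same measure were Lmna and Haus1 for Cldn5 (0.986 and 0.985), Dnajb11 and Prkx for Mfsd2a (0.989 and 0.982), and Taf12 and Creld2 for Slc2a1 (0.985 and 0.978). For Vwf they were Nsl1 and Ifitm1 (both 0.992), and for Pecam1 the smooth muscle gene Tagln and Akap12 (both 0.991). For Angpt2 they were Ckap4 and Lmnb1 (0.991 and 0.99), and for Vcam1 Ripk1 and Prkd3 (both 0.997). These values describe 12 points, of which EZ and PIZ points of 1 treatment and day come from the same mice, and carry no test.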

How the data were processed

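Poly-A RNA of the dorsal dentate gyrus was sequenced as stranded TruSeq libraries, 1 per mouse and side. Reads were trimmed with fastp 0.20.1, aligned to GRCm39 with HISAT2 2.2.1 and assigned to Gencode M28 genes by strand with featureCounts of Subread 1.6.4, and the authors deposited the raw counts per gene with no normalization. Reads that overlapped more than 1 feature went to that with the largest overlap, and multi-mapping reads by their primary alignment. Gene symbols and exon lengths came from Gencode M39, which matched 98.9% of the identifiers. The sample records state an age of 6 to 8 weeks and the study's methods an older range, and the records were followed.

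The counts of 17762656 to 25712975 per library were fitted with edgeR 4.0.16 (limma 3.58.1, R 4.3.3), with TMM scaling, filterByExpr, 12 group means in 1 quasi-likelihood model and a prior count of 2, and p-values were adjusted by Benjamini-Hochberg over the 21390 genes tested. Thresholds were those of the study. Each comparison was two-sided. CPM and FPKM (over the union of a gene's exons) were computed from the same counts. Samples were separate mice, and EZ and PIZ libraries with the same number came from 1 mouse. Over the 24 mice the correlation of their deviations from the group means was -0.0536 to 0.376. DESeq2 1.42.0, limma-voom with quality weights, mouse as a block, the compared groups or the side alone, other scalings and filters, other thresholds and leaving out each mouse were tried, and list counts without mouse 23, 27 or 44 were added after the data were seen. The main edgeR model alone was tested on simulated data, for kainate against saline in the EZ at day 3 with independent libraries.

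The 10 genes and the gene lists were chosen with earlier results of these data known. From each list the text named the 2 most abundant genes and the called gene with the largest change in each direction in the EZ at days 3 and 7 and in the PIZ at day 3, and for each DEG among the 10 the 2 most similar protein-coding genes. A gene that this rule names is not reported here. The list genes Cldn3, Marveld3, Madcam1, Dpt, Kcnj13, Clic6, Otx2, Slc4a1 and Ppbp were under the count filter.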

Additional observations from a re-analysis of the deposited data

Results flagged for a closer look

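In 6 of the 120 groups of 4 libraries formed by the 10 genes, the highest or lowest library lay apart from the other 3 by Dixon's test, and chance gives about 1 in 20. Mouse 27 accounted for 3 of them in the EZ of kainate mice at day 14, with log2 CPM of 6.9 for Vcam1, 5.51 for Mfsd2a and 5.79 for Cldn5, all above the other mice. The others were kainate mouse 44 in the EZ at day 3 for Mfsd2a (4.57, the lowest), saline mouse 89 in the EZ at day 7 for Cldn5 (4.21, the lowest) and kainate mouse 23 in the PIZ at day 7 for Slc2a1 (6.42, the highest).

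The effect of kainate differed between the injected and the opposite side at day 7 in 2 genes, by a test of the difference itself with edgeR. The EZ effect exceeded the PIZ effect by 1.95 for Mfsd2a and by 1.82 for Vcam1 on the log2 scale, and 7% of all genes had a larger effect in the EZ. Both calls were lost without any 1 of mice 21, 35, 20 and 89 (adjusted p of 0.0106 to 0.0272). In both genes all 4 kainate mice had a higher level in the EZ library than in their own PIZ library.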

How the results depend on the processing

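No value of the 10 genes that was called in the main model changed its direction under any alternative. Tjp1, called in the EZ at days 3 and 7 with library size only (0.61 and 0.59), was at -0.13 and -0.10 when scaled to the endothelial identity list. With DESeq2, 1 of the 10 genes was called in the EZ at day 14 and 1 in the PIZ at day 3 (733 and 2064 of all genes, beside 504 and 1858 by edgeR). Limma-voom with quality weights called 2 in the PIZ at day 3, 1 in the PIZ at day 7, 3 and 4 for EZ minus PIZ at days 3 and 7, 1 for day 7 minus day 3 and 6 for day 14 minus day 7 in the EZ. Over all genes these 6 counts were 2778, 822, 1879, 5126, 1225 and 6301, beside 1858, 43, 14, 2115, 31 and 58 by edgeR. A model of only the compared groups called 3 in the EZ at day 7 and 2 in the PIZ at day 3 (3847 and 2284 of all genes, beside 6960 and 1858), and the libraries of 1 side alone gave 2 in the PIZ at day 3, 6 in the EZ at day 3 (without Slc2a1) and 5 at day 7 (without Cldn5 and Angpt2), with 2503, 3946 and 6023 of all genes. Library size only gave 1 in the PIZ at day 3 and 8 in the EZ at days 3 and 7, Tjp1 included, with 2043, 5546 and 6991 of all genes. Scaling to the endothelial identity list gave 4 in the EZ at day 7, 1 in the EZ at day 14, 1 in the PIZ at day 3 and 1 for EZ minus PIZ at day 7 (10472, 656, 1662 and 617 of all genes). An adjusted p under 0.05 gave 1, 2 and 2 in the EZ at day 14, the PIZ at day 3 and day 14 minus day 7 in the EZ (1030, 2818 and 2378 of all genes). A test against 1.5-fold (glmTreat) called 3, 3 and 0 genes in the EZ at days 3 and 7 and for EZ minus PIZ at day 7, and 2242, 3448 and 0 of all genes, beside 5280, 6960 and 2115. The causes were not tested.

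With each mouse left out in turn, 6 to 7 genes were called in the EZ at day 3, 4 to 7 at day 7 (4 without mouse 21 or 35, with 5450 and 5528 of all genes), 0 to 1 at day 14, 0 to 1 in the PIZ at day 3, 0 to 3 for EZ minus PIZ at day 7 and 0 to 3 for day 14 minus day 7. Mouse as a random replicate block gave 6 genes in the EZ at day 7, without Cldn5, and neither this block nor the fixed block changed another call of the 10 genes. With at least 10 counts in every library Angpt2 was not tested. Over all genes in the EZ at day 14, 504 were called by edgeR, 733 by DESeq2, 0 with only the compared groups and 7 without mouse 27. The low counts of Angpt2, from 8 per library, limit its precision.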
